A study of Mus musculus with 30 samples.

Results

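The 9 genes described here, Tmem119, Cx3cr1, Fcrl2, Olfml3, Sparc, Selplg, Vsir, Mpeg1 and Golm1, encode proteins that microglia carry on their surface, secrete or keep in vesicles and the Golgi. They were taken by symbol from the deposited table of 51752 genes, where each had 1 row. Fcrl2 is that table's name for mouse Fcrls. All 9 had counts in every library and passed the low-count filter in every comparison.

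Microglia are the resident macrophages of the brain and depend on signalling through the receptor encoded by Csf1r. Its ligands are colony-stimulating factor 1 and interleukin-34 (IL-34), and neurons are the main source of IL-34 in the forebrain. In the unperturbed brain microglia express a set of genes called homeostatic, some of which mark them off from other macrophages. Many microglia lose expression of such genes when they are activated.

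Within this set, Tmem119 encodes a transmembrane protein widely used as a microglia marker, and Cx3cr1 the receptor for the neuronal chemokine fractalkine. Fcrls is an Fc receptor-like scavenger protein. Selplg encodes PSGL-1, a ligand of selectins, and Vsir encodes VISTA, an immune checkpoint protein that can bind PSGL-1. Olfml3 and Sparc encode secreted proteins, an olfactomedin-like glycoprotein and a matricellular protein. Mpeg1 encodes perforin-2, a pore-forming protein of macrophage vesicles, and Golm1 a Golgi membrane protein that can be shed.

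The data are 30 RNA-seq libraries from 15 mice of both sexes. In the deletion experiment 4 Il34 heterozygous mice (Het), which keep 1 intact copy, were compared with 3 Il34 knockout mice (KO). In the antibody experiment 4 wild-type mice given anti-IL34 blocking antibody were compared with 4 wild-type mice given anti-gp120, the control antibody. After saline perfusion 1 hemisphere of each forebrain was sequenced whole, and from the other CD11b-positive cells were isolated with magnetic beads, here called the isolates. The age of the mice and the dose and duration of antibody are not given in the sources used here. The Het and anti-gp120 arms each held 2 males and 2 females, the KO arm 2 females and a single male (animal 3). With anti-IL34 there were 3 males and a single female (animal 11). Library totals ran from 15064391 to 75158213 counts in forebrain and from 15755836 to 50541164 counts in the isolates. Il34 itself stood at 6.80 to 8.72 CPM (counts scaled to a fixed library total) in KO forebrain and at 19.4 to 23.4 CPM in Het forebrain. In the isolates the arms overlapped, with 5.84 to 7.33 CPM in KO and 5.02 to 11.0 CPM in Het.

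The 7 members with a start site in the RefSeq promoter table (GRCm38.p6) were Cx3cr1, Fcrl2, Olfml3, Sparc, Vsir, Mpeg1 and Golm1. Tmem119 and Selplg were not matched. PU.1, encoded by Spi1, is the macrophage transcription factor whose core site reads GGAAGT. That core, on either strand and from 250 bases before to 50 bases after the start site, was found in 3 of the 7, and in 23.8% of all 32851 windows of the same length in the table. The 250 bases before the start site are shown for these 3 because they hold the core. Of the members without it, Cx3cr1 and Olfml3 were called lower in all 4 comparisons of arms below, as these 3 were, Mpeg1 in 3 of the 4 and Sparc in none. The sequences are read 5′ to 3′ on the gene's own strand, with the PU.1 core or its reverse complement in capitals.
Fcrl2: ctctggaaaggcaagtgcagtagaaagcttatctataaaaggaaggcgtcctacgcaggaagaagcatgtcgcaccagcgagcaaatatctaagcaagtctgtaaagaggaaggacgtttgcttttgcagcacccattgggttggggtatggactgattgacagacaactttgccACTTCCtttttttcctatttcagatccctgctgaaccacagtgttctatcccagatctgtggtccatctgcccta
Vsir: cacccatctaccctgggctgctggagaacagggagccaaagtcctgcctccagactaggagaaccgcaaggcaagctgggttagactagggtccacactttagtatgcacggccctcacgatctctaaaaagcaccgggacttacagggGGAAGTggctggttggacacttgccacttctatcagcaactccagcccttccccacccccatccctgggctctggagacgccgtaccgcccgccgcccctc
Golm1: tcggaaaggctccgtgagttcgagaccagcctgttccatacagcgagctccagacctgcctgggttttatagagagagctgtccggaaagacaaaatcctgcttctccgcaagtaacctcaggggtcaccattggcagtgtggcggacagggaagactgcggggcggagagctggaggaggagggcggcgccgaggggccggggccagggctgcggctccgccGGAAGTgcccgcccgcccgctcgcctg
The Fcrl2 sequence lies at chr3:87263525-87263774 on the minus strand, the Vsir sequence at chr10:60346601-60346850 on the plus strand and the Golm1 sequence at chr13:59675785-59676034 on the minus strand. The core began 75 bases before the start site in Fcrl2, 101 in Vsir and 27 in Golm1. Also searched on both strands were the SMAD element CAGAC, the interferon-stimulated response element and the MEF2 site. CAGAC was found in 5 of the 7 (Cx3cr1, Fcrl2, Sparc, Vsir and Golm1) against 49.6% of all windows, the MEF2 site in Cx3cr1 alone (3.69% of all windows) and the interferon-stimulated response element in none (3.44%). None of the motifs overlapped another in these windows.

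Tmem119 (ENSMUSG00000054675) spans chr5:113793729-113800516 on the minus strand of GRCm38, and Selplg (ENSMUSG00000048163) lies nearby at chr5:113818536-113832644, also on the minus strand. Cx3cr1 (ENSMUSG00000052336) has the longest annotated span of the 9, chr9:119901616-120069879, of which 4505 of 168264 bases are exonic. Deposited lengths are whole gene spans, so the deposited TPM, a count scaled by gene length and library total, puts long genes low. By median TPM over the 8 control forebrains the order was Sparc 257, Mpeg1 136, Fcrl2 47.7, Tmem119 33.9, Vsir 20.4, Olfml3 20.2, Selplg 16.7, Golm1 15.0 and Cx3cr1 6.37. Sparc stood above every other member in every control forebrain, at 227 TPM or more. From Fcrl2 down to Golm1 the ranges of neighbours in that order overlapped. Within a library, Fcrl2 was above Tmem119 and Tmem119 above Vsir in 8 of 8, while Vsir was above Olfml3 in 5, Olfml3 above Selplg in 6 and Selplg above Golm1 in 7 of 8. In the 8 control isolates Mpeg1 led at 5938 TPM, and Fcrl2 (1727), Sparc (1604) and Tmem119 (1448) overlapped one another. Selplg (817), Olfml3 (669.7) and Vsir (567) followed, each overlapping the next, and then Golm1 (263) and Cx3cr1 (218), whose ranges also overlapped. Divided by exonic length in place of span, Cx3cr1 moved from rank 9 to rank 3 in both tissues, behind Sparc and Fcrl2, and Mpeg1 stood at rank 4 in both. Reads over introns, if counted, would raise Cx3cr1 on the exonic scale, and their share was not tested.

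All 9 genes were far higher in the isolates than in whole forebrain of the same control mice. The difference was 63.9-fold for Mpeg1, 63.3-fold for Selplg, 58.3-fold for Tmem119, 56.3-fold for Fcrl2, 47.7-fold for Cx3cr1 and 38.5-fold for Vsir. Olfml3 lay between Fcrl2 and Cx3cr1, and Golm1 (26.5-fold) and Sparc (8.82-fold) had the smallest differences. Sparc is also made by astrocytes and cells of the vessel wall. On the log2 scale Sparc was higher by 3.14 (SE 0.117, adjusted p 5.81e-13, edgeR with Benjamini-Hochberg adjustment) and Mpeg1 by 6.00 (SE 0.194, adjusted p 1.35e-13, edgeR). The background share is large, since 40.8% of the 18752 genes tested were higher in the isolates at an adjusted p under 0.05. Microglia-defining genes were higher as well, Csf1r by 6.17, P2ry12 by 5.42, Siglech by 5.04 and Aif1 by 4.80 on the log2 scale. Neuron genes were lower, 8 of 8 with a median of -3.87, but the median of 8 astrocyte genes was 0.60 and that of 8 oligodendrocyte-lineage genes 0.15, so RNA of glia other than microglia was present in the isolates.

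In whole forebrain, deletion of Il34 lowered 8 of the 9 genes. The share of all 19343 genes called lower there was 0.615% (edgeR quasi-likelihood test with sex as a covariate, Benjamini-Hochberg adjusted p under 0.05). Tmem119 and Selplg lost the most and Golm1 the least, and Sparc did not pass. In a sample of whole tissue, fewer microglia and less RNA per microglial cell cannot be told apart.

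Tmem119 stood at 8.05, 6.74, 5.33 and 6.92 CPM in the forebrains of Het animals 1, 20, 21 and 23, and at 1.87, 1.85 and 1.94 CPM in KO animals 3, 6 and 24. CPM here and below are scaled by edgeR's TMM factors over the 15 libraries of a tissue. The KO forebrains were nearly alike and all below the lowest Het forebrain. The log2 fold change was -1.85 (SE 0.157, adjusted p 5.60e-05, edgeR), which is 27.7% of the Het level. Selplg ran from 6.56 to 8.85 CPM in Het and from 1.99 to 2.51 CPM in KO, and fell to 31.1% (-1.69, SE 0.133, adjusted p 2.84e-05, edgeR).

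Cx3cr1 was at 34.6, 33.1, 31.6 and 31.2 CPM in Het animals 1, 20, 21 and 23 and at 12, 12.8 and 13 CPM in KO animals 3, 6 and 24. Both arms were tight, and they did not overlap. Its fold change, -1.37 on the log2 scale (SE 0.0637), had the smallest adjusted p of the 9 genes (2.74e-07, edgeR). Fcrl2 was at 14.1 to 19.6 CPM in Het and 6.01 to 7.27 CPM in KO forebrain (-1.24, SE 0.104, adjusted p 5.52e-05, edgeR). Mpeg1 was at 15.6 to 18.2 CPM in Het and 6.61 to 7.54 CPM in KO (-1.27, SE 0.0833, adjusted p 6.85e-06, edgeR). Of the secreted proteins' genes, Olfml3 fell from 7.72 to 10.3 CPM in Het to 3.31 to 4.45 CPM in KO (-1.20, SE 0.135, adjusted p 0.000569, edgeR).

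Vsir and Golm1 changed less. Vsir was at 17.5, 17.7, 17.5 and 18 CPM in Het and 10.2, 10.1 and 8.56 CPM in KO, in the order of animals given above, and fell to 55.3% (-0.86, SE 0.0749, adjusted p 6.95e-05, edgeR). Golm1 was at 19.9, 21.3, 18.3 and 18.9 CPM in Het and 14.2, 14.9 and 14.3 CPM in KO, and fell to 73.4% (-0.45, SE 0.0679, adjusted p 0.00741, edgeR). The call for Golm1 was lost without KO animal 3, the only KO male (adjusted p 0.0932, edgeR). Sparc was at 268, 351, 267 and 251 CPM in Het and 219, 225 and 211 CPM in KO forebrain. All 3 KO values lay below all 4 Het values, but the difference of -0.39 (SE 0.0898) had an adjusted p of 0.10 (edgeR). Sparc passed in 2 of the 7 fits that each left out 1 animal, those without Het animal 20 or 23. It also passed in the fit without a low-count filter (adjusted p 6.74e-15, edgeR), which tested 30696 genes in place of 19343. Why p fell so far there was not tested, so that value is not read as a firmer result. Arms were separate for all 9 genes, against 9.07% of all genes.

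**Figure D1:**
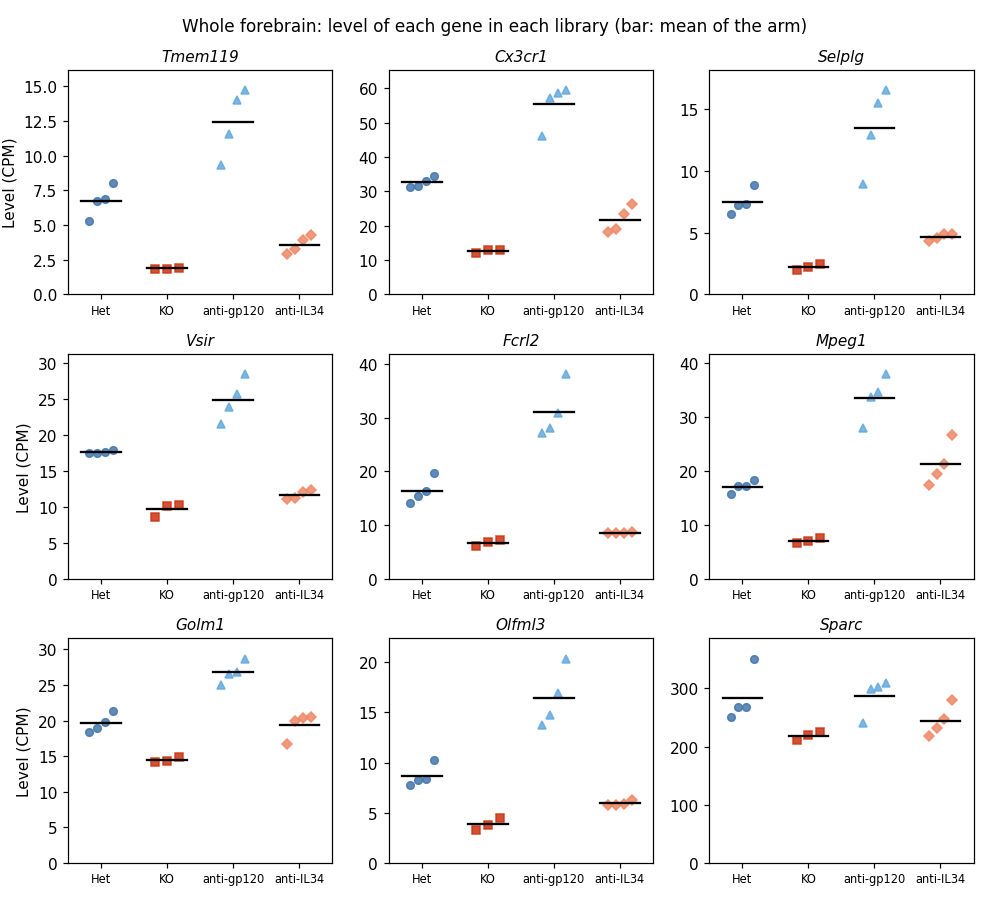
Level of each gene (CPM, linear axis from 0) in the 15 whole-forebrain libraries by arm, 1 point per mouse and a bar at the mean of the arm. KO points lie below Het points in all 9 panels and anti-IL34 points below anti-gp120 points in all but Sparc, and anti-gp120 forebrains stand above Het forebrains for most genes.

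The antibody against IL-34 lowered the same number of genes in forebrain, 8 of 9, while 0.525% of the 17143 genes tested were called lower. Fcrl2 and Tmem119 changed the most. Fcrl2 stood at 28.0, 30.9, 38.1 and 27.2 CPM in anti-gp120 animals 1, 7, 8 and 15 and at 8.45, 8.45, 8.45 and 8.63 CPM in anti-IL34 animals 2, 10, 11 and 24. The 4 treated mice were almost equal to one another and far below the controls, at 27.8% of their level (-1.85 on the log2 scale, SE 0.113, adjusted p 2.87e-05, edgeR). Tmem119 was at 11.6, 14.7, 14.0 and 9.32 CPM with anti-gp120 and at 3.90, 4.30, 2.90 and 3.26 CPM with anti-IL34 (-1.84, SE 0.162, adjusted p 0.000317, edgeR).

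Cx3cr1 fell from 46.1 to 59.5 CPM to 18.2 to 26.2 CPM (-1.41, SE 0.117, adjusted p 0.000248, edgeR), and Selplg from 8.96 to 16.6 CPM to 4.30 to 4.94 CPM (-1.57, SE 0.172, adjusted p 0.00178, edgeR). Olfml3 fell from 13.7 to 20.4 CPM to 5.75 to 6.24 CPM (-1.47, SE 0.132, adjusted p 0.000326, edgeR), and Vsir from 21.5 to 28.5 CPM to 11.2 to 12.3 CPM (-1.13, SE 0.0971, adjusted p 0.000317, edgeR). For these 4 genes, as for Fcrl2 and Tmem119, the arms did not overlap and the call held in each of the 8 fits that left out 1 animal.

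Mpeg1, Golm1 and Sparc moved less. Mpeg1 was at 33.6, 34.5, 37.9 and 27.8 CPM with anti-gp120 and at 26.7, 19.4, 17.4 and 21.3 CPM with anti-IL34, so that the highest treated mouse came close to the lowest control. It fell to 60.8% (-0.72, SE 0.126, adjusted p 0.0258, edgeR), and the call held in 3 of the 8 fits without 1 animal (adjusted p up to 0.311, without anti-IL34 animal 11, edgeR). Golm1 was at 26.5, 26.8, 28.7 and 25.0 CPM with anti-gp120 and at 19.9, 16.8, 20.5 and 20.3 CPM with anti-IL34 (-0.47, SE 0.0890, adjusted p 0.0408, edgeR). Its call held in 1 of the 8 (adjusted p up to 0.219, without animal 11, edgeR). Sparc was at 299, 302, 309 and 241 CPM with anti-gp120 and at 231, 248, 218 and 280 CPM with anti-IL34. These arms overlapped, and the difference of -0.29 (SE 0.0894) was not past the threshold (adjusted p 0.445, edgeR), except without the low-count filter (adjusted p 0.0169, edgeR). The cause of that smaller p was not tested. Arms were separate for 8 members, against 3.27% of all genes.

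Control forebrains of the experiments also differed in level. Het mice had 6.76 ± 1.12 CPM of Tmem119 and anti-gp120 mice 12.4 ± 2.46 CPM (SD, n = 4 each). In the same order, Mpeg1 was at 17.1 ± 1.09 and 33.5 ± 4.17 CPM, and Olfml3 at 8.67 ± 1.12 and 16.5 ± 2.95 CPM. Loss of 1 Il34 copy, the control antibody and the experiment cannot be told apart here. Sparc was alike in both, 284 ± 45.4 and 288 ± 31.6 CPM (SD, n = 4 each).

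In the isolates, deletion lowered 8 of the 9 genes, again all but Sparc, but the calls did not hold when single animals were left out. The share of all 18185 genes called lower was 5.22%. Tmem119 was at 360, 415, 541 and 433 CPM in Het animals 1, 20, 21 and 23 and at 108, 126 and 112 CPM in KO animals 3, 6 and 24 (-1.92, SE 0.182, adjusted p 0.0136, edgeR). Selplg fell from 461 to 686 CPM to 138 to 156 CPM (-1.84, SE 0.189, adjusted p 0.0136, edgeR). The KO level was 26.5% of the Het level for Tmem119 and 27.9% for Selplg, and in neither did the arms come close.

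Cx3cr1 was at 1493, 1703, 2359 and 1644 CPM in Het isolates and at 544, 670 and 549 CPM in KO isolates (-1.60, SE 0.247, adjusted p 0.0206, edgeR). Golm1 was at 431, 494, 754 and 517 CPM in Het and at 172, 191 and 190 CPM in KO (-1.55, SE 0.223, adjusted p 0.0169, edgeR). In KO isolates Cx3cr1 stood at 33.1% and Golm1 at 34.2% of the Het level, with no overlap. Vsir (-1.64, SE 0.200, adjusted p 0.0138), Olfml3 (-1.61, SE 0.226, adjusted p 0.0163), Mpeg1 (-1.49, SE 0.287, adjusted p 0.0348) and Fcrl2 (-1.41, SE 0.262, adjusted p 0.0323) were lower too (edgeR, Benjamini-Hochberg).

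Sparc was at 1942, 2063, 2899 and 2042 CPM in Het isolates and at 1254, 1426 and 1264 CPM in KO isolates. The arms did not overlap, but the difference of -0.74 (SE 0.244) had an adjusted p of 0.114 (edgeR), against 0.00359 by DESeq2. The 9 genes were all below the Het range in the KO isolates, against 38.7% of all genes whose arms did not overlap. Each of the 8 calls held in 2 of the 7 fits without 1 animal. Without Het animal 1 or Het animal 21 all 9 genes passed, and without Het animal 20, Het animal 23 or any one of KO animals 3, 6 and 24 none did (edgeR adjusted p up to 0.45, for Sparc without KO animal 3). The unadjusted edgeR p stayed under 0.05 for these 8 genes in all 7 fits.

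**Figure D2:**
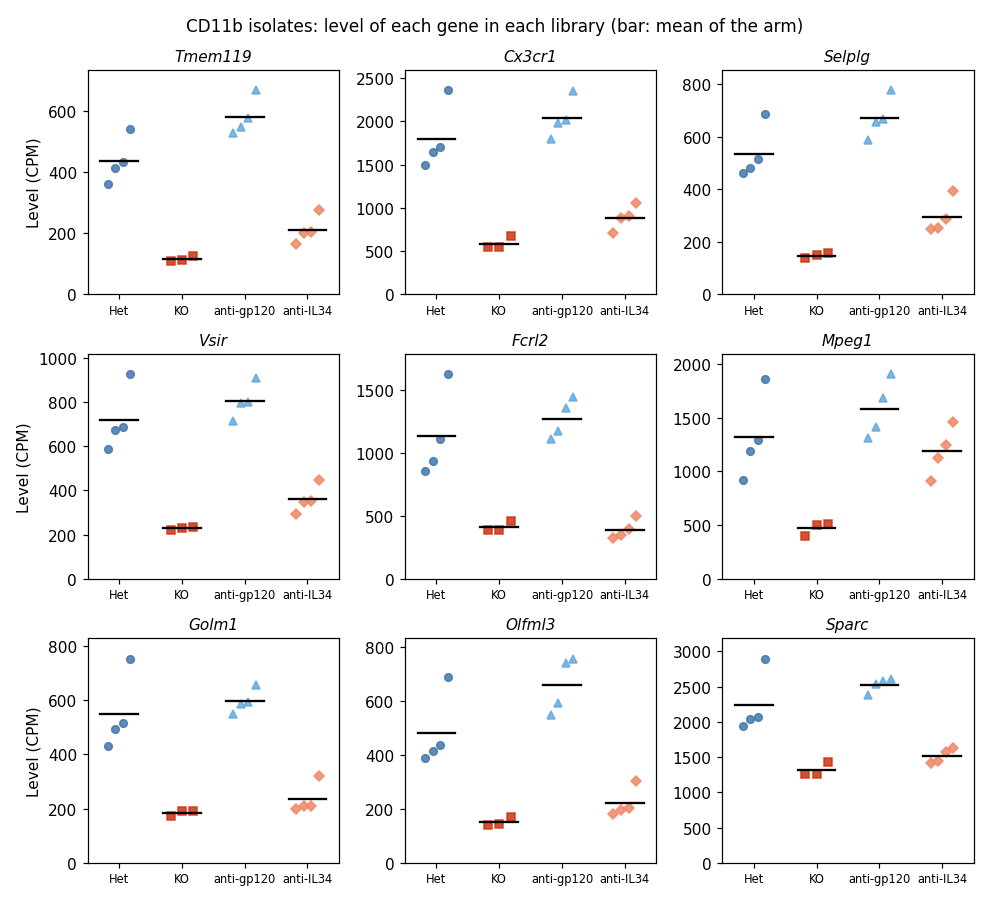
Level of each gene (CPM, linear axis from 0) in the 15 libraries of CD11b isolates by arm, 1 point per mouse and a bar at the mean of the arm. KO points lie below all Het points in the 9 panels, and Mpeg1 is the gene whose anti-IL34 and anti-gp120 points overlap.

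With the antibody, 7 of the 9 genes were lower in the isolates, where 0.603% of the 17570 genes tested were called lower. Fcrl2 was at 1444, 1173, 1350 and 1111 CPM in anti-gp120 animals 1, 7, 8 and 15 and at 349, 393, 494 and 321 CPM in anti-IL34 animals 2, 10, 11 and 24. Here it was the gene that lost the most, at 31.9% of control (-1.65, SE 0.178, adjusted p 0.0223, edgeR), while in forebrain it and Tmem119 fell about equally. Olfml3 was at 548 to 757 CPM with anti-gp120 and at 182 to 304 CPM with anti-IL34 (-1.51, SE 0.193, adjusted p 0.0374, edgeR). Tmem119 was at 668, 548, 578 and 529 CPM with anti-gp120 and at 205, 165, 275 and 200.3 CPM with anti-IL34 (-1.40, SE 0.176, adjusted p 0.0371, edgeR). For these 3 genes the highest treated isolate lay well under the lowest control isolate.

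Golm1 was at 656, 594, 588 and 549.6 CPM with anti-gp120 and at 211, 210.1, 322 and 197 CPM with anti-IL34 (-1.29, SE 0.173, adjusted p 0.0374, edgeR). Cx3cr1 (-1.16, SE 0.184, adjusted p 0.0442), Selplg (-1.13, SE 0.183, adjusted p 0.0466) and Vsir (-1.12, SE 0.167, adjusted p 0.0399) were close to the threshold of the edgeR test, with arms that did not overlap. Sparc was at 2606, 2539, 2585 and 2381 CPM with anti-gp120 and at 1439, 1422, 1569 and 1623 CPM with anti-IL34. Its arms did not overlap either, and its difference of -0.71 (SE 0.153) had an adjusted p of 0.0685 (edgeR), against 3.22e-09 by DESeq2.

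Mpeg1 stood apart from the other members. Its isolates had 1902, 1411, 1686 and 1306 CPM with anti-gp120 and 1246, 907, 1457 and 1127 CPM with anti-IL34, so the arms overlapped. The difference of -0.37 (SE 0.207, approximate 95% confidence interval -0.77 to 0.04) was not past the threshold (adjusted p 0.265, edgeR). Intervals here and below use a normal quantile and are narrower than the edgeR test would give. Arms were separate for the other 8 genes, against 16.9% of all genes. The 7 calls held in 2 of the 8 fits without 1 animal. They held without anti-IL34 animal 11, the only female of that arm, or anti-gp120 animal 15, and none held without any other animal (edgeR adjusted p for the 7 genes up to 0.225, without anti-gp120 animal 7), although the unadjusted p stayed under 0.05 for all 7 genes in all 8 fits.

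RNA of astrocytes, oligodendrocytes and neurons moved with the arms of the isolates. The summed level of 8 astrocyte, 8 oligodendrocyte-lineage and 8 neuron genes ran from 6655 to 20904 CPM in Het isolates and from 23253 to 35819 CPM in KO isolates, without overlap. It ran from 9561 to 31373 CPM with anti-gp120 and from 18619 to 35218 CPM with anti-IL34. None of these 24 genes was at 0 in any isolate, and none passed the test in either comparison, with list medians from 0.65 to 0.96 on the log2 scale. Within every arm the isolate with the least of this RNA was the one in which most members were highest. That was Het animal 21 and anti-gp120 animal 1, each highest for 9 of 9 genes, and KO animal 6 and anti-IL34 animal 11, each highest for 8 of 9.

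With the summed level added to the model as a covariate, an alternative chosen after seeing the data, 6 of the 9 genes were called lower in KO isolates, against 1.06% of all genes. Tmem119 was then at -1.63 (adjusted p 0.0351, edgeR) and Selplg at -1.56 (adjusted p 0.0351, edgeR), and the calls of Fcrl2 (-1.02, adjusted p 0.122, edgeR) and Mpeg1 (-0.98, adjusted p 0.113, edgeR) were lost. The summed level did not overlap between Het and KO isolates, so this fit cannot part it from deletion. It is also a share of the same library total as the members. No conclusion is drawn from the calls kept or lost. With the antibody 7 genes were called lower under the same model, against 0.552% of all genes, led by Fcrl2 at -1.35 (adjusted p 0.0105, edgeR), and Mpeg1 was at -0.01 (adjusted p 0.983, edgeR). Summed choroid plexus genes ran from 4.01 to 7.81 CPM with anti-gp120 and stood at 2089, 546, 33.8 and 5.17 CPM in anti-IL34 animals 10, 11, 24 and 2. None of the 5 passed (edgeR, median 3.47 on the log2 scale). They ran from 1611 to 3838 CPM in Het and from 1123 to 3020 CPM in KO isolates. Summed heat-shock and immediate-early genes, which tissue dissociation can raise, ran from 3154 to 3961 CPM in KO isolates and from 6726 to 10818 CPM in Het isolates, and 5 of the 8 were called lower. With anti-IL34 they ran from 5120 to 7797 CPM against 7493 to 10677 CPM with anti-gp120 (median -0.49, 0 of 8 called, edgeR). Summed genes of neutrophils and monocytes, which also carry CD11b, ran from 159 to 449 CPM with anti-IL34 and from 46.3 to 310.2 CPM with anti-gp120 (median 0.66), and border macrophage genes from 378 to 534 CPM and from 537 to 999 CPM, without overlap (median -0.47). None of either list was called there (edgeR). The part of these 4 lists in the members' difference was not tested.

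**Figure D3:**
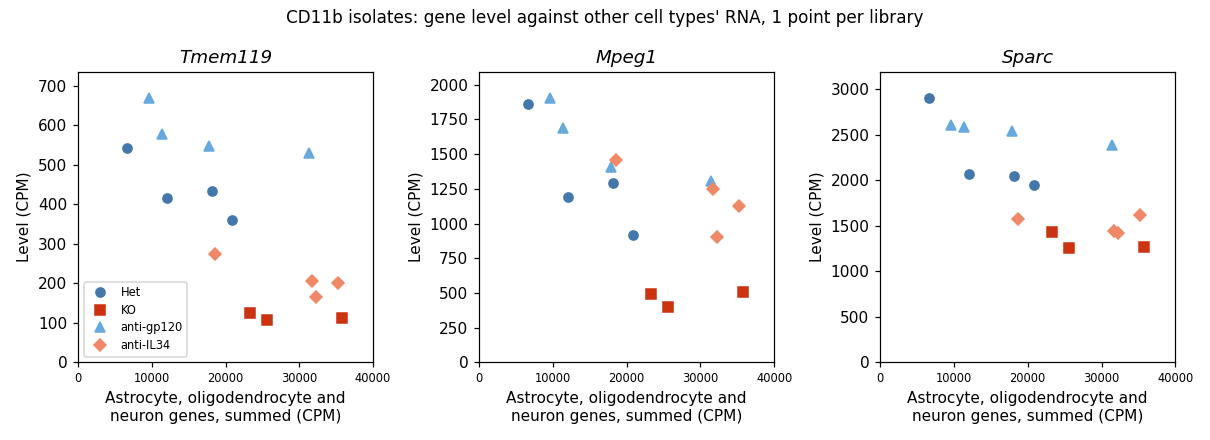
Level of Tmem119, Mpeg1 and Sparc (CPM) against the summed level of astrocyte, oligodendrocyte-lineage and neuron genes (CPM) in the 15 CD11b isolates, 1 point per library, with linear axes from 0. KO isolates lie to the right of and below Het isolates in all 3 panels, and for Tmem119 and Sparc anti-IL34 isolates lie below anti-gp120 isolates whatever their position on the horizontal axis.

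No member passed the test of a difference between antibody and deletion in edgeR. For each gene the effect of deletion minus the effect of antibody was tested over the 15 libraries of a tissue, and none of the 9 passed in forebrain (2 of 19724 genes, 0.0101%, did) or in the isolates (0 of 18732, 0%). In forebrain, 3 members had an unadjusted edgeR p under 0.05 (Fcrl2, Mpeg1 and Vsir), against 3.07% of all genes, and in the isolates 2 had (Mpeg1 and Selplg), against 3.95%. DESeq2 called none of the 9 in either tissue.

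Forebrain Fcrl2 averaged 16.4 CPM in Het and 31.0 CPM with anti-gp120. It ended at 6.01 to 7.27 CPM in KO, below the 8.45 to 8.63 CPM with anti-IL34. Relative to the controls of each experiment, Fcrl2 lost more with antibody than with deletion in forebrain, by 0.60 on the log2 scale (SE 0.174, 95% confidence interval 0.26 to 0.94, unadjusted p 0.00285, adjusted p 0.891, edgeR). Mpeg1 went the other way and lost more with deletion, by -0.57 (SE 0.164, 95% confidence interval -0.89 to -0.25, unadjusted p 0.00289, adjusted p 0.891, edgeR). In the isolates the same difference of Mpeg1 was -1.11 (SE 0.343, 95% confidence interval -1.78 to -0.44, unadjusted p 0.0064, adjusted p 0.802, edgeR), and that of Fcrl2 was 0.25 (95% confidence interval -0.37 to 0.86). These values did not pass the adjustment over all genes. Both forebrain values did in the fit without a low-count filter (adjusted p 0.00662 for Fcrl2 and 0.00806 for Mpeg1, edgeR), and the cause of these smaller p-values was not tested. For Tmem119 in forebrain the difference was -0.03 (95% confidence interval -0.50 to 0.44), for Cx3cr1 0.02 (-0.27 to 0.31) and for Golm1 0.02 (-0.20 to 0.23). Vsir (0.26), Olfml3 (0.26), Selplg (-0.13) and Sparc (-0.13) were the others in forebrain. In the isolates Selplg was at -0.70 (95% confidence interval -1.21 to -0.18), Vsir at -0.50, Tmem119 at -0.50, Cx3cr1 at -0.41, Golm1 at -0.26, Olfml3 at -0.11 and Sparc at 0.00. The median of the 9 there was -0.41, beside -0.61 for the reference microglia genes described below, and leaving out anti-IL34 animal 11 or Het animal 21 moved the median of the 9 to -0.25 or -0.27.

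**Figure D4:**
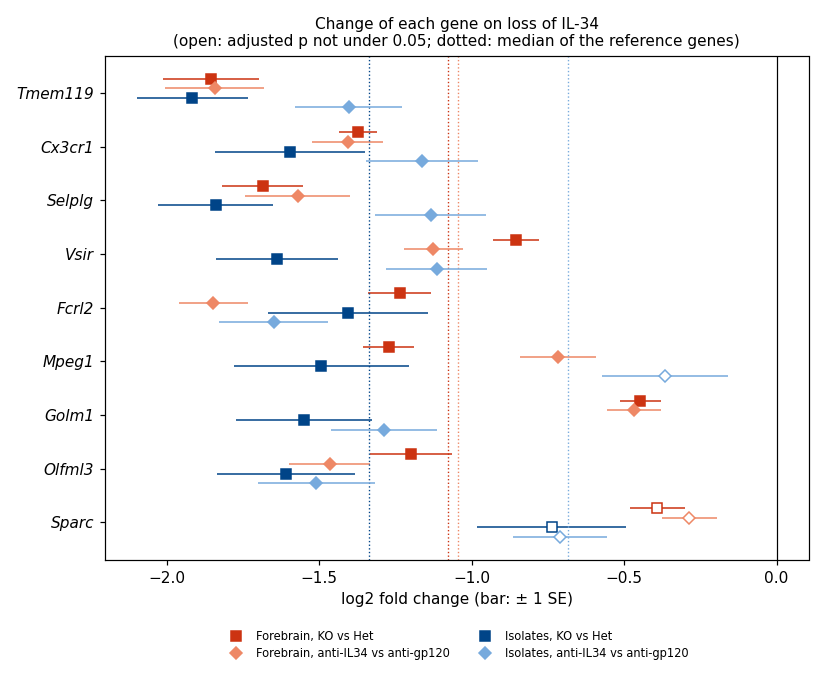
log2 fold change of each gene in the 4 comparisons of arms, with bars of 1 SE. Filled symbols have an adjusted p under 0.05 and dotted lines mark the median of the reference microglia genes in each comparison. Sparc is open in all 4 comparisons, Mpeg1 is open for the antibody in the isolates, and every value lies below 0.

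Effects in the isolates and in forebrain were compared gene by gene. Golm1 fell more in the isolates, by -1.07 on the log2 scale for deletion (SE 0.230, adjusted p 0.0366, edgeR), while 2.43% of 20107 genes were called in that direction. It was the only one of the 9 past the threshold. With the animal as a replicate block, which pairs the 2 libraries of a mouse, the difference was -1.05 with an adjusted p of 0.113 (edgeR), and without KO animal 3 the adjusted p was 0.427 (edgeR). For the antibody the difference of Golm1 was -0.84 (SE 0.202, adjusted p 0.111, edgeR), and none of the 9 genes passed, where 17 of 18399 genes (0.0924%) did. DESeq2 called 2 members lower there, against 2.94% of the genes it tested, Golm1 (-0.89, adjusted p 0.00326) and Sparc (-0.50, adjusted p 0.0227). Vsir was next for deletion at -0.74 (SE 0.200, adjusted p 0.0646, edgeR, and 0.00558 by DESeq2, which called 6.12% of the genes it tested lower). The other differences for deletion were -0.38 for Olfml3, -0.31 for Sparc, -0.20 for Mpeg1, -0.19 for Cx3cr1, -0.13 for Fcrl2, -0.11 for Selplg and -0.04 for Tmem119, none past the threshold. For the antibody, Sparc was at -0.44, Tmem119 at 0.43, Selplg at 0.43, Mpeg1 at 0.34, Cx3cr1 at 0.23, Fcrl2 at 0.19, Olfml3 at -0.06 and Vsir at 0.00.

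The members were then set against 20 other genes that microglia express, among them Ctss, Trem2, Tyrobp, C1qa and Spi1. Of these, 19 could be used, since Itgam was at 0 counts in every forebrain library and had too few counts in the isolates to be tested. Itgam encodes CD11b, by which the isolates were selected, so its low counts are not read as absence from these cells. The cause of these low counts was not tested. The mean level of the 19 reference genes fell with the members. On the log2 CPM scale it was 2.80 ± 0.09 (SD, n = 4) in Het and 1.80 ± 0.05 (SD, n = 3) in KO forebrain, and 3.67 ± 0.26 and 2.77 ± 0.26 (SD, n = 4 each) with anti-gp120 and anti-IL34. In the isolates it was 8.34 ± 0.36 in Het and 7.00 ± 0.09 in KO, and 8.70 ± 0.31 with anti-gp120 and 7.96 ± 0.26 with anti-IL34.

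In KO forebrain 15 of the 19 reference genes were called lower, with a median of -1.08, with the smallest p for Ctss (-1.34), C1qa (-1.33) and C1qb (-1.27), against a median of -1.24 for the 9 members. With antibody in forebrain 11 of 19 were, with a median of -1.04 against -1.41 for the members, among them Laptm5 (-1.44) and Cyth4 (-1.28). In KO isolates 16 of 19 were, median -1.34 against -1.60, with the smallest p for Trem2 (-1.56), Tyrobp (-1.26) and Cyth4 (-1.46). With antibody in the isolates none of the 19 was (edgeR), although the median was -0.69 against -1.16 for the members. The median of all genes tested was within 0.06 of 0 in the 4 comparisons.

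Each library was next scaled so that the mean log2 level of the reference genes was equal, and the test was repeated on all genes. A negative value then says that a gene lost more than the reference genes did. This scaling moves the median of all genes up by 1.00 in KO forebrain, 0.96 with antibody in forebrain, 1.33 in KO isolates and 0.76 with antibody in the isolates, so genes of other cells appear higher and only a small share of all genes appears lower.

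In KO forebrain 5 members were lower relative to the reference genes, against 0.176% of all genes. They were Tmem119 (-0.85, SE 0.158, adjusted p 3.86e-06), Selplg (-0.70, SE 0.147, adjusted p 3.25e-05), Cx3cr1 (-0.38, SE 0.0947, adjusted p 0.000352), Mpeg1 (-0.27, SE 0.109, adjusted p 0.0194) and Fcrl2 (-0.24, SE 0.110, adjusted p 0.0350, all edgeR). The ratio of Tmem119 to the reference genes, on the log2 scale, was 0.09, 0.01, -0.31 and 0.01 in Het animals 1, 20, 21 and 23 and -0.85, -0.93 and -0.76 in KO animals 3, 6 and 24, without overlap. The calls of Mpeg1 and Fcrl2 held in 4 of 7 fits without 1 animal and those of the other 3 genes in 7 of 7. Sparc (0.61, SE 0.0909, adjusted p 6.01e-08, edgeR) and Golm1 (0.55, SE 0.0972, adjusted p 1.61e-06, edgeR) were higher relative to the reference genes, as were 91.5% of all genes. Olfml3 (-0.20) and Vsir (0.14) did not differ past the threshold. By the same test 4 of the 19 reference genes themselves were lower and 3 higher, and of the 14 other homeostatic genes listed below 7 were lower and 5 higher.

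With antibody, 5 members were again lower relative to the reference genes in forebrain, against 0.117% of all genes, but they were not the same 5. Fcrl2 was at -0.87 (SE 0.217, adjusted p 9.73e-05, edgeR) and Tmem119 at -0.87 (SE 0.231, adjusted p 0.000241, edgeR), and both calls held in 8 of 8 fits without 1 animal. Selplg (-0.58, adjusted p 0.0107), Olfml3 (-0.49, adjusted p 0.0289) and Cx3cr1 (-0.44, adjusted p 0.0431, all edgeR) followed, and held in 7, 3 and 1 of the 8. Fcrl2 had a log2 ratio of 1.12, 1.20, 1.33 and 1.46 in anti-gp120 animals 1, 7, 8 and 15 and of 0.06, 0.46, 0.62 and 0.18 in anti-IL34 animals 2, 10, 11 and 24. In KO and Het forebrain its ratio was 0.84 to 1.02 and 1.08 to 1.37, a narrow gap by comparison. Mpeg1 was at 0.25 (95% confidence interval -0.18 to 0.67) and Vsir at -0.15 (-0.57 to 0.27), neither past the threshold. Of the 14 other homeostatic genes 8 were lower and 4 higher, and of the 19 reference genes 1 each way. Sparc (0.69, adjusted p 0.00319) and Golm1 (0.50, adjusted p 0.0206, both edgeR) were higher relative to the reference genes, as were 95.5% of all genes, and both calls were lost without anti-IL34 animal 11 (adjusted p 0.0571 and 0.218, edgeR). Scaled instead to 14 other homeostatic genes, Vsir was at 0.16, Fcrl2 and Tmem119 kept their calls, and those of Selplg (-0.28, adjusted p 0.104), Olfml3 (-0.18, adjusted p 0.245) and Cx3cr1 (-0.13, adjusted p 0.325, all edgeR) were lost. Under that scaling Fcrl2 lost its call in KO forebrain (-0.17, adjusted p 0.118, edgeR), Vsir passed as higher there (0.21, adjusted p 0.0221, edgeR), as did 92.7% of all genes, and Mpeg1 with antibody passed as higher (0.56, adjusted p 0.000150, edgeR), as did 98.6%.

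**Figure D5:**
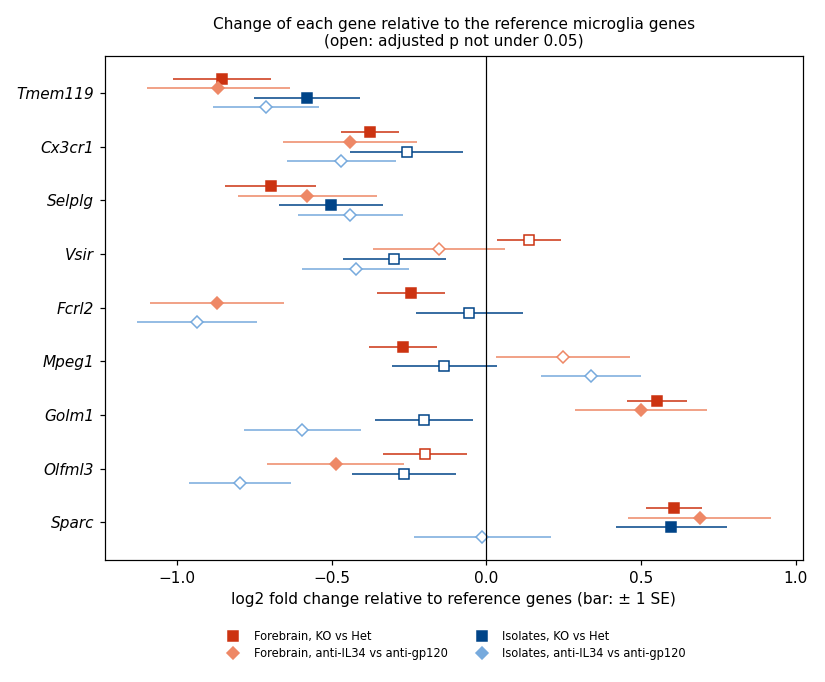
log2 fold change of each gene relative to the reference microglia genes in the 4 comparisons of arms, with bars of 1 SE and filled symbols for an adjusted p under 0.05. Tmem119, Cx3cr1 and Selplg lie below 0 in all 4 comparisons, Fcrl2 lies lower with antibody than with deletion, Mpeg1 changes side between them, and Sparc lies above 0 in 3.

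In KO isolates Tmem119 (-0.58, SE 0.170, adjusted p 0.0132, edgeR) and Selplg (-0.50, SE 0.168, adjusted p 0.0223, edgeR) were lower relative to the reference genes, against 0.088% of all genes, and Sparc was higher (0.60, SE 0.180, adjusted p 0.0147, edgeR), as were 83.7%. The call of Tmem119 held in 3 of 7 fits without 1 animal, that of Selplg in 2 and that of Sparc in 5. The other 6 members lay between -0.05 and -0.30 and did not pass. Of the 14 other homeostatic genes 5 were lower, and none of the 19 reference genes was called. Scaled to the 14 other homeostatic genes, Cx3cr1, Fcrl2, Olfml3, Vsir, Mpeg1 and Golm1 lay between 0.04 and 0.28, Tmem119 (-0.24, adjusted p 0.147, edgeR) and Selplg (-0.16, adjusted p 0.313, edgeR) did not pass, and Sparc passed as higher, as did 92.6% of all genes.

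With antibody in the isolates none of the 9 genes passed relative to the reference genes, where 1.14% of all genes did (edgeR adjusted p from 0.0587 to 0.960), although 7 had an unadjusted p under 0.05, as did 56% of all genes, and 7 were called lower in the fit without a sex term, against 0.626% of all genes. By size, Fcrl2 (-0.93, SE 0.195), Olfml3 (-0.80, SE 0.165) and Tmem119 (-0.71, SE 0.171) lay lowest and Mpeg1 (0.34, SE 0.161) highest. The log2 ratio of Mpeg1 was 1.87, 1.84, 1.86 and 2.05 in anti-gp120 isolates and 2.23, 2.16, 2.24 and 2.28 in anti-IL34 isolates, so all treated isolates were above all controls, as for 29.1% of all genes. In 7 members the ratios of all treated isolates lay below those of all controls, against 0.894% of all genes. Scaled to the other homeostatic genes, Cx3cr1, Selplg, Vsir and Golm1 turned to between 0.12 and 0.29, Fcrl2 was at -0.23, Sparc, at -0.01 before, was at 0.70 (adjusted p 0.00669, edgeR), and Mpeg1 was at 1.04 (adjusted p 0.000552, edgeR), where 96% of all genes were called higher.

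The other homeostatic genes, a list of 14 that includes P2ry12, Siglech, Csf1r, Gpr34 and Slc2a5, were lowered as well. In KO forebrain 9 of 14 were called lower (median -1.17), with the smallest p for P2ry12 (-1.85), Csf1r (-1.42) and Siglech (-1.61). With antibody in forebrain 10 were (median -1.59), with the smallest p for P2ry12 (-2.18), P2ry13 (-2.08) and Gpr34 (-1.60). In KO isolates all 14 were (median -1.72), with the smallest p for Crybb1 (-2.13), Slc2a5 (-2.07) and Gpr165 (-1.74). In anti-IL34 isolates 9 were (median -1.36), with the smallest p for Gpr165 (-1.84), Slc2a5 (-2.78) and Bank1 (-1.88).

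Genes for proteins that bind or cleave the members were not lowered in forebrain. Of 8 listed, 5 could be tested there, among them Cx3cl1, the ligand of Cx3cr1, Igsf11, a ligand of VISTA, the proteases Adam10 and Adam17, and Sparcl1, a relative of Sparc, and none was called with deletion (median -0.03) or antibody (median -0.05). In KO isolates 1 of 8 was called, Adam17 at -0.76 with an adjusted p at the threshold (0.05, edgeR). Disease-associated microglia genes such as Apoe, Cst7 and Spp1, which activated microglia can raise, were called in neither direction in any of the 4 comparisons (11, 9, 12 and 12 tested). In KO forebrain Apoe was at -0.19 (adjusted p 0.156, edgeR), and in anti-IL34 isolates Axl was at 0.87 (adjusted p 0.0566, edgeR). Border macrophage genes such as Mrc1 and Lyve1 were called in none of the 4, with medians from -0.17 to -0.55. Of 8 oligodendrocyte-lineage genes, 3 were called lower in KO forebrain (median -0.26).

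The genes whose levels followed each member most closely were found by the smaller of the Pearson correlations over the 15 forebrains and over the 15 isolates, among 17778 genes. The members themselves were left out of this ranking. Some of them followed one another as closely, such as Tmem119 and Selplg (0.98 in forebrain and 0.99 in the isolates). The points share libraries and arms, so these values describe likeness only. Siglech was closest to Tmem119 (0.97), Cx3cr1 (0.99) and Olfml3 (0.98), and Csf1r to Selplg (0.98). P2ry12 (0.98) and P2ry13 (0.97) followed Fcrl2. Mpeg1 was closest to Ctss (0.99), C1qb (0.98) and C1qa (0.98), all of them in the reference list. Wasf2 was closest to Vsir (0.98) and Inpp5d to Golm1 (0.96). Sparc had no near match of that strength, Rffl being closest at 0.90.

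Reads of neighbouring genes could enter some of these counts. Vsir lies inside Cdh23 on the other strand, Golm1 overlaps Naa35 on the other strand and the annotated span of Cx3cr1 overlaps 9 genes, 3 of them on its own strand and all 3 at 0 counts. In the isolates Vsir had 243932 counts and Cdh23 10228, Cx3cr1 611075 and its opposite-strand neighbour Wdr48 22880, and Golm1 181376 and Naa35 26429. In forebrain Naa35 (30135) and Wdr48 (48817) had more counts than Golm1 (11932) and Cx3cr1 (19603). Strand use in the counting is not stated. Of protein-coding genes that lie inside another gene, 374 of 376 on the same strand had 0 counts in every library against 74 of 673 on the opposite strand alone.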

How the data were processed

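Forebrain and CD11b isolates of 15 mice yielded RNA by TRIzol-chloroform extraction, and SMART-Seq v4 was the library kit, per the labels. The submitters' processing notes name STAR 2.7.5c, featureCounts 1.6.3, R 4.4.0 and the build GRCm38. The authors deposited unnormalised read counts per gene and TPM values. The deposited TPM equals the count divided by a length that matched the whole gene span of GENCODE M21 for 51183 of 51498 gene identifiers. The deposited sample sheet and the labels gave the same animal, sex and tissue in all 30 libraries used. Columns of libraries without labels, 6 of counts and 6 of TPM, were not used here. No pair of replicates looked like 1 library deposited again (chi-square per degree of freedom at least 5.84 over 42 pairs).

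The deposited counts entered edgeR 4.0.16 under R 4.3.3 (quasi-likelihood F test, TMM scaling, default expression filter, sex as a covariate, Benjamini-Hochberg adjustment over all genes tested, threshold 0.05). SEs come from the size of the log2 fold change over the root of its F value. Confidence intervals were built from these SEs with a normal quantile. With so few libraries they are narrower than the F test would give, so they are approximate and the calls rest on the test. Each comparison of arms used the libraries of 1 tissue and 1 experiment. Differences between tissues and between experiments were tested as interaction terms. For the scaling to reference genes 0.5 was added to counts before taking the log2. Precision is limited by the number of animals, and near 1 CPM also by counting error.

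Alternatives were DESeq2 1.42.0, RLE size factors, no filter, no sex term, 1 fit over 15 libraries, another reference list, each animal left out, and an animal block. The libraries of a mouse share its number, and their deviations from the group means correlated across genes at a median of 0.156 (above 0.1 in 12 of 15 mice), against -0.06 for other mice. All 9 members were named in every comparison, and of each list the 3 genes with the smallest p, except 1 gene that is not reported here. The members and the lists were chosen with earlier results of these data known.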

Additional observations from a re-analysis of the deposited data

Results flagged for a closer look

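In 54 groups of 4 libraries (9 genes in each tissue and arm of that size) the highest or lowest library was compared with the other 3, and 7 groups held 1 library far from the rest, where chance gives about 1 in 20. In the Het isolates animal 21 stood high for Sparc, at 2899 CPM against 1942 to 2063 CPM in the others, and for Olfml3, at 688 CPM against 389 to 438 CPM. In the Het forebrains animal 20 had 351 CPM of Sparc against 251 to 268 CPM. The anti-gp120 forebrain of animal 15 was low for Sparc, at 241 CPM against 299 to 309 CPM, and for Cx3cr1, at 46.1 CPM against 57.3 to 59.5 CPM. The anti-IL34 isolate of animal 11 had 322 CPM of Golm1 against 197 to 211 CPM. The anti-IL34 forebrain of animal 24 had 8.63 CPM of Fcrl2, apart from the others only because these lay between 8.45 and 8.45 CPM. Golm1 was also the 1 member called by edgeR in the test of whether the response to deletion differed between tissues, at -1.07 on the log2 scale. That call was lost with the animal as a block (adjusted p 0.113, edgeR), and DESeq2 called 2 members lower, against 6.12% of the genes it tested.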

How the results depend on the processing

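Of 1467 values of single genes under an alternative, 1225 kept their direction and side of the threshold, 142 lost a call, 45 gained one and 55 changed sign. The counts of members lowered in the 4 comparisons of arms stayed within 1.5 times of those reported under DESeq2, RLE size factors, no low-count filter, no sex term and 1 fit over 15 libraries. With 1 animal left out they ran from 7 to 9 (forebrain, deletion), 6 to 8 (forebrain, antibody), 0 to 9 (isolates, deletion) and 0 to 8 (isolates, antibody), and members called in either direction relative to the reference genes from 5 to 7, 3 to 7, 0 to 4 and 0 to 7. The enrichment in isolates held for 9 members in every fit. Members whose effect differed between tissues numbered 0 to 2 for deletion and 0 to 2 for antibody with 1 animal left out, and between experiments 0 in both tissues. With the animal as a replicate block 0 members differed between tissues for deletion and 0 for antibody, and the pairing changed no other call. DESeq2 gave 2 and 2, and no filter 1 for antibody. Without the filter 2 members differed between experiments in forebrain, and the cause of the smaller p-values in such fits was not tested. Relative to the reference genes in the isolates, other homeostatic genes as reference gave 1 (deletion) and 2 (antibody) members, all higher and none lower where 92.6% and 96% of all genes were higher, and no sex term 7 (antibody), all lower. With that other reference these values changed sign: in forebrain with antibody Vsir 0.16, in KO isolates Cx3cr1 0.081, Fcrl2 0.28, Olfml3 0.071, Vsir 0.043, Mpeg1 0.20 and Golm1 0.14, and in anti-IL34 isolates Cx3cr1 0.24, Sparc 0.70, Selplg 0.27, Vsir 0.29 and Golm1 0.12. The cause was not tested. Values near 0 also changed sign. Between experiments these were Cx3cr1 in forebrain without a sex term (-0.013) and Sparc in the isolates without a filter (0.00020). With 1 animal left out the value relative to reference genes ran from -0.13 to 0.0012 for Fcrl2 (KO isolates) and -0.17 to 0.18 for Sparc (anti-IL34 isolates). The difference between tissues for deletion ran from -0.23 to 0.17 for Tmem119, -0.29 to 0.069 for Fcrl2, -0.26 to 0.028 for Selplg and -0.35 to 0.067 for Mpeg1, and for antibody from -0.062 to 0.39 for Fcrl2, -0.35 to 0.19 for Olfml3 and -0.19 to 0.18 for Vsir. Between experiments in forebrain it ran from -0.13 to 0.092 for Tmem119, -0.049 to 0.13 for Cx3cr1, -0.20 to 0.060 for Sparc and -0.034 to 0.072 for Golm1, and in the isolates from -0.24 to 0.22 for Olfml3, -0.068 to 0.11 for Sparc and -0.36 to 0.034 for Golm1. Over all genes the number called in KO isolates ran from 0 to 5756, and in anti-IL34 isolates from 0 to 6905, with 1 animal left out, against 55 to 117 and 25 to 126 in forebrain. The summed level of other cell types as a covariate was chosen after seeing the data.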
